A study of Mus musculus with 15 samples.

Results

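The small RNA tables of these microglia list 160 entries under the heading piRNA, of 1994 entries in the table that holds miRNAs and piRNAs and 3624 entries in all tables. Every row below that heading was taken, whatever its values. The entries carry 91 different piRNA names, because 16 names were counted at more than 1 genomic position and account for 85 entries. They are 19 to 32 nt long with a median of 28 nt, and 146 of them are 26 to 32 nt long.

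piRNAs are small RNAs that guide PIWI proteins to transposons and other targets, and they are best known from the germ line, where they keep transposons silent. Most are longer than miRNAs and are cut from long single-stranded precursors without Dicer. Their length range overlaps that of pieces of tRNAs, small nucleolar RNAs (snoRNAs, which guide the modification of ribosomal RNA) and ribosomal RNAs (rRNAs), so a name in a piRNA catalogue states where a read was assigned and not how the RNA was made. The entries were therefore set beside the other RNA classes of the same libraries: 267 nuclear tRNAs, 16 mitochondrial tRNAs, 229 snoRNAs, 101 small nuclear RNAs (snRNAs) and 2 rRNA entries (the 45S precursor and 18S).

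Microglia, the macrophages that live in the brain, were sorted by CD11b and CD45 from wild-type (WT) mice and from transgenic (TG) 5xFAD mice, which express mutant human amyloid precursor protein and presenilin under a neuronal promoter and deposit amyloid. Methoxy-X04 (Me-X04), an amyloid-binding dye, was injected into all mice, WT included, and TG microglia were sorted into dye-negative cells (TG Me-X04-, below Me-X04-) and dye-positive, phagocytic cells (TG Me-X04+, below Me-X04+). WT cells were dye-negative too. Each of the 3 groups held 5 libraries, and every TG mouse gave 1 Me-X04- and 1 Me-X04+ library. By the labels, WT animals were 2 months old and TG animals 6 months old, whereas the methods of the study state other ages, so genotype and labelled age cannot be told apart wherever WT is compared.

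Sequencing gave 21429882 to 26434297 reads per library and 240027 to 1192832 unique molecular identifiers (UMIs, which mark single molecules) on miRNAs and piRNAs. These were 240027 to 372998 UMIs in Me-X04+, 405351 to 682553 in Me-X04- and 424536 to 1192832 in WT. Every Me-X04+ library thus held fewer UMIs than every other library, so UMI depth and the Me-X04+ group cannot be told apart. No UMI value of a piRNA entry lay between 1 and 9, so a piRNA entry listed at 0 was taken to have 0 to 9 UMIs. An entry just above this floor in a library with more UMIs can therefore be listed at 0 in Me-X04+. WT replicates 4 and 5 stood apart: they held 113460 and 108440 reads assigned to mRNA, against 17836 to 33178 in the other 13 libraries, and 115 and 129 piRNA entries above 0, against 44 to 71. Most results that involve WT are therefore given with and without these libraries. Correlations between single RNAs were computed over all libraries only. Summed miRNA markers of microglia and myeloid cells were at 109557 to 176049 CPM in WT and 88918 to 185408 in Me-X04-. They were at 24161 to 47888 CPM in Me-X04+. CPM here are UMIs scaled to a common library total after correction by TMM (trimmed mean of M-values) factors. These factors were 0.56 to 1.19 in WT and Me-X04- and 1.33 to 2.92 in Me-X04+. A larger factor lowers all CPM of a library, so the lower marker level in Me-X04+ depends in part on this scaling. Neuronal markers were at 1646 to 3891, 1354 to 2893 and 643 to 1014 CPM in WT, Me-X04- and Me-X04+. In the same order, oligodendrocyte markers were at 363 to 522, 237 to 510 and 224 to 318 CPM. Endothelial and mural markers were at 99.2 to 385, 91.5 to 213 and 62.0 to 159 CPM. Erythroid markers were at 116 to 159, 133 to 203 and 84.0 to 189 CPM. The neuronal markers of Me-X04+ thus lay below both other groups without overlap, as did the microglial and myeloid markers, on this scaling. In the oligodendrocyte, endothelial and mural, and erythroid sets Me-X04+ overlapped Me-X04-. Of these sets, all but the oligodendrocyte set overlapped WT. In bulk libraries, fewer cells of a type and less RNA per cell cannot be told apart.

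The sequences of the piRNAs themselves were not used here, and the genome build behind the positions in their names is not given in the sources used here. At face value, 0 of 160 entries overlapped an annotated small RNA or rRNA gene of GRCm38. Distances between neighbouring entries do not depend on where a build places them. Of the 32 entries named mmu_piR_000691, 29 lay on the minus strand of chromosome 8 between positions 126424875 and 126509751 of the entries' own build. The distances of all 29 from the first of them equalled, to the base, distances between the 56 genes annotated on that strand for 5S rRNA, the small RNA of the large ribosomal subunit, while the next best alignment of the 2 sets matched 4.

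The reference sequences shown, from the GENCODE vM21 transcripts of GRCm38, are those of the snoRNAs whose levels moved most like those of mmu_piR_032974 and mmu_piR_000580, in the comparison of single RNAs. Both are box C/D snoRNAs, which guide 2′-O-methylation, and both lie on the chromosome and strand given in the name of the piRNA entry. Capitals mark the letters CTGA, the D box, near the 3′ end (bases 64 to 67 and 65 to 68). These letters occur in the last 12 bases of 454 of 1507 annotated snoRNA transcripts (30.1%), read on the transcript strand alone.
Snord85, GRCm38 chr4:130749634-130749706, plus strand: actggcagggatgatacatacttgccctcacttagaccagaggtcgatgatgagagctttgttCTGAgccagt
Snord104, GRCm38 chr11:106500993-106501062, plus strand: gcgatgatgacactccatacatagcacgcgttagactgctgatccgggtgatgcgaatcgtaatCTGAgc

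A single entry carried most of the signal. mmu_piR_032974, an entry of 28 nt on chromosome 4, held 98322 UMIs over the 15 libraries, 59.4% of all piRNA UMIs. The 4 highest entries together held 75.7%, the 10 highest 82.7% and the 20 highest 88.9%. At the other end, 38 entries were above 0 in 1 library and 48 in 2 libraries, and 61.0% of all values were 0. The 28 entries above 0 in every library held 91.3% of piRNA UMIs. Of the 160 entries, 64 were above 0 only in WT replicate 4 or 5, and 98 had their highest level in 1 of these libraries.

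**Figure D1:**
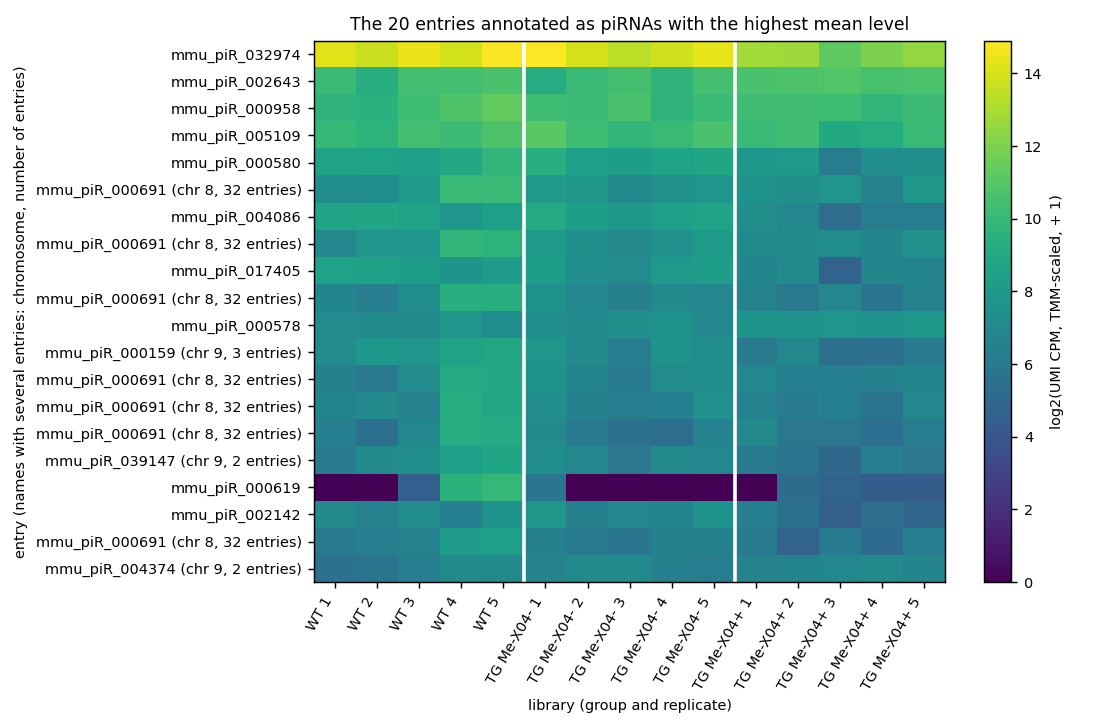
Level of the 20 highest piRNA entries (rows) in each of the 15 libraries (columns), as log2 of UMI CPM scaled by TMM factors plus 1. mmu_piR_032974 heads every column, the mmu_piR_000691 entries are brightest in WT replicates 4 and 5, and mmu_piR_000619 is at 0 or low outside them.

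UMI CPM scaled by TMM (trimmed mean of M-values) factors is the level used from here on, unless a share or a ratio is named. mmu_piR_032974 stood at 18466, 13372, 22844, 14873 and 28832 CPM in the WT libraries. It was at 30547, 15603, 11053, 14320 and 21059 CPM in Me-X04- and at 7258, 6765, 2319, 3998 and 5700 CPM in Me-X04+. All 5 Me-X04+ libraries lay below every library of both other groups, which overlapped each other.

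The next entries were far lower and close to each other. mmu_piR_002643 (chromosome 3) averaged 1219 ± 372 CPM in WT (SD, n = 5), 1082 ± 378 in Me-X04- and 1662 ± 133 in Me-X04+. mmu_piR_000958 (chromosome 17) averaged 1429 ± 765, 1199 ± 266 and 1188 ± 160 CPM. mmu_piR_005109 (chromosome 5) averaged 1226 ± 355, 1387 ± 483 and 922 ± 341 CPM. These 3 could not be ordered within WT or Me-X04-, because their means differed by less than the spread between libraries. mmu_piR_000580 (chromosome 11) followed at 501 ± 220, 440 ± 141 and 183 ± 76.3 CPM.

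Several entries belong to clusters. The 32 entries of mmu_piR_000691 together held 8.41% of piRNA UMIs. Their summed level was 6568 and 6248 CPM in WT replicates 4 and 5 and 590 to 1734 CPM in the other 13 libraries, so that these WT libraries lay far above all others. A stretch of 5204 bases on chromosome 17 (39451051 to 39456254 in the entries' own build) held 13 entries with 13 different names and 8.09% of piRNA UMIs. Its sum was 3431 and 4741 CPM in WT replicates 4 and 5 and 1036 to 1894 CPM elsewhere. Within that stretch, mmu_piR_000619 was at 756 and 970 CPM in WT replicates 4 and 5 and at 0 to 56.8 CPM in the other libraries. Over the whole list, 34 entries overlapped another entry on the same strand, in 20 pairs, so neighbouring entries may count the same molecules and are not independent of each other.

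Whether the entries kept a constant proportion to an RNA class was examined next, as a description. For each of the 28 entries above 0 everywhere, the log2 ratio of its UMIs to the summed UMIs of each class was taken within each library, which needs no scaling factor, and the SD of that ratio over the 15 libraries measured how steady it was. For mmu_piR_032974 the SD was 0.18 against snoRNAs, 0.42 against miRNAs, 0.53 against nuclear tRNAs, 0.71 against snRNAs, 0.93 against rRNAs and 0.98 against mitochondrial tRNAs. Its ratio to snoRNAs averaged -2.18 ± 0.19 in WT, -2.19 ± 0.06 in Me-X04- and -2.47 ± 0.10 in Me-X04+, and ran from -2.63 to -2.06 over all libraries. It was lower in all 5 Me-X04+ libraries (-2.63 to -2.37) than in all 5 Me-X04- libraries (-2.27 to -2.12). Single snoRNAs set against their own class in the same way had SDs of 0.10 to 0.67 with a median of 0.29 (96 snoRNAs), and 18 of the 96 were steadier than mmu_piR_032974. This entry thus varied against the snoRNAs no more than most snoRNAs did.

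The other 159 entries behaved differently as a sum. Their log2 ratio to rRNA was -4.64, -4.43, -4.74, -4.73 and -4.62 in WT, -4.55, -4.70, -4.66, -4.62 and -4.54 in Me-X04-, and -4.63, -4.64, -4.79, -4.79 and -4.62 in Me-X04+. The SD over all libraries was 0.10, and WT replicates 4 and 5 lay within the range of the rest. Over the same libraries the ratio of this sum to snoRNAs ran from -3.71 to -1.11, and the ratio of mmu_piR_032974 to rRNA ran from -6.30 to -2.97. The steadiness against rRNA was that of the sum and not of its parts: the SD against rRNA was 0.69 for mmu_piR_002643 and 1.11 for mmu_piR_004086.

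**Figure D2:**
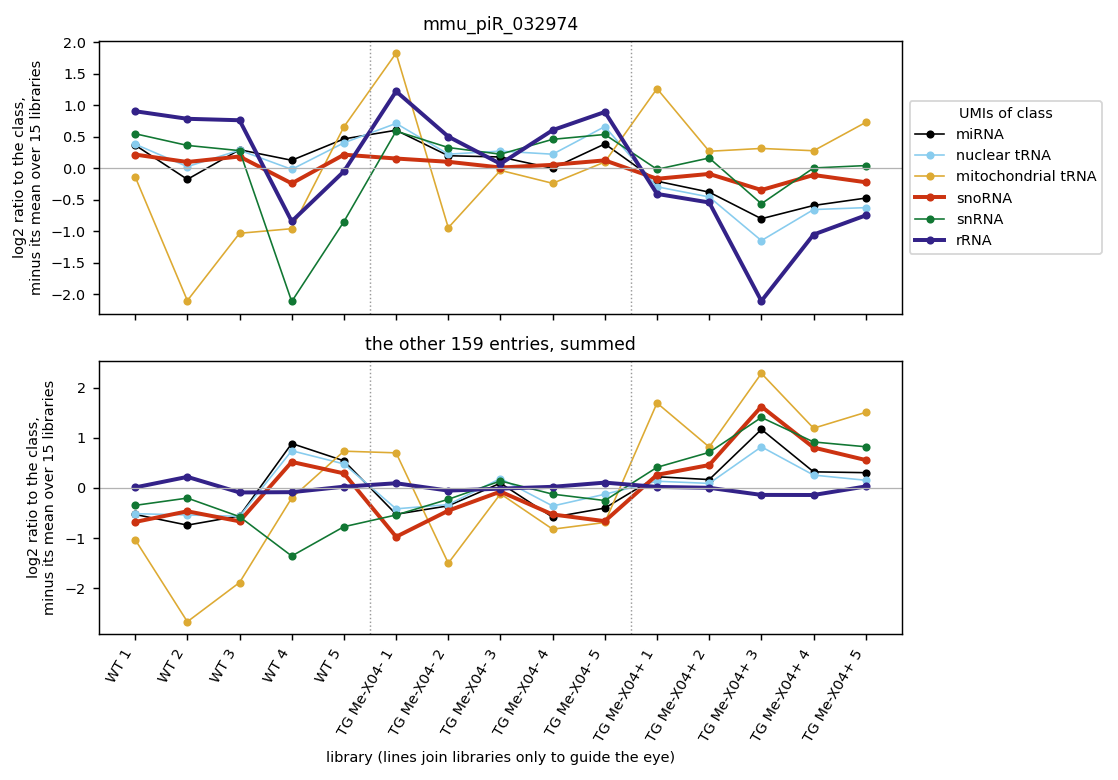
Log2 ratio of mmu_piR_032974 (top) and of the other 159 entries summed (bottom) to each of 6 RNA classes in the 15 libraries, each ratio shown as its deviation from its own mean. The snoRNA line is flattest for mmu_piR_032974 (SD 0.18) and the rRNA line is flattest for the remainder (SD 0.10), while the mitochondrial tRNA lines swing most.

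Entry by entry, the class with the smallest SD was rRNA for 16 of the 28 entries, snoRNA for 5, miRNA for 3, snRNA for 3, nuclear tRNA for 1 (mmu_piR_005109) and mitochondrial tRNA for 0. By UMIs, the entries nearest to snoRNA held 68.8% and those nearest to rRNA 22.1% of what the 28 entries carried. Without WT replicates 4 and 5 the counts were 17 for rRNA, 5 for snoRNA, 4 for miRNA, 1 for snRNA and 1 for nuclear tRNA, but 21 of the 28 entries kept their class: all 16 nearest to rRNA, 3 of 5 nearest to snoRNA, 1 of 3 nearest to miRNA, 0 of 3 nearest to snRNA and the 1 nearest to nuclear tRNA. mmu_piR_000580 moved from snoRNA to miRNA and mmu_piR_017405 from miRNA to snoRNA. With each group centred on its own mean, the counts were 8 for rRNA and 8 for snRNA, while snoRNA, miRNA and nuclear tRNA had 4 each. Fewer entries were thus nearest to rRNA once differences between groups were taken out. This version keeps WT replicates 4 and 5, which held 28542 and 31347 snRNA UMIs, against 1795 to 7254 in the other libraries. Most entries nearest to snRNA in it are positions of mmu_piR_000691. Of the 28 entries, 11 had 1 class in all 3 versions. mmu_piR_032974 stayed nearest to snoRNA in all 3 versions, and mmu_piR_002643 and mmu_piR_000958 stayed nearest to rRNA. mmu_piR_005109 was nearest to nuclear tRNA over all libraries (SD 0.34, against 0.41 for miRNA and 0.56 for snoRNA) and to snoRNA within groups.

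**Figure D3:**
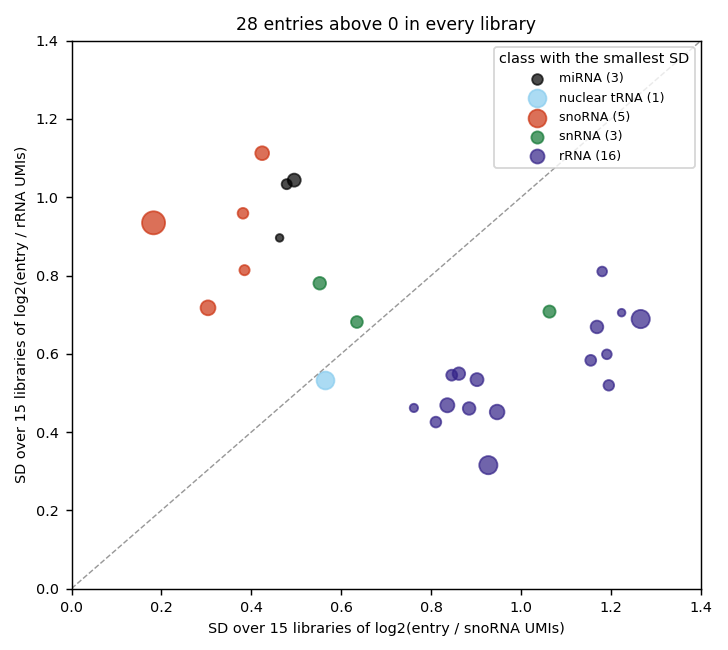
SD over 15 libraries of the log2 ratio of each of 28 piRNA entries to rRNA (vertical) and to snoRNA (horizontal), coloured by the class with the smallest SD, with larger points for entries with more UMIs. The dashed line marks equal SDs. The 16 entries nearest to rRNA lie below it, and the 5 nearest to snoRNA, with mmu_piR_032974 as the largest point, lie above it.

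Single RNAs were then compared by their deviations from the group means (Pearson r of log2 CPM over 15 libraries, among 212 entries of other RNAs and 88 tRNAs with no library at 0). Libraries share depth and composition, so high values are frequent and carry no p. mmu_piR_032974 was most like Snord85 (r = 0.990), which is 1 of 16 candidates on chromosome 4, with Snord57 next (r = 0.988), and its most similar tRNA was tRNA-Lys-CTT-2-2 (r = 0.944). Its log2 UMI ratio to Snord85 was 0.96 ± 0.10 in WT, 1.04 ± 0.08 in Me-X04- and 1.15 ± 0.07 in Me-X04+ and stayed between 0.82 and 1.26, so this entry was counted about 2 times as often as Snord85 in every library.

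mmu_piR_000580 was about as much like tRNA-Leu-TAG-1-1 (r = 0.913) as like Snord104 (r = 0.907), 1 of 28 candidates on chromosome 11. Its log2 UMI ratio to Snord104 averaged 0.23 with an SD of 0.23. The entry mmu_piR_027673 starts upstream of mmu_piR_000580 on the same strand, and from the first base of one to the last base of the other is 75 bases, while the Snord104 model has 70. mmu_piR_005109 was most like the snoRNA Gm26109 (r = 0.979), with tRNA-Asp-GTC-1-9 as its most similar tRNA (r = 0.948). Here the ratio was not constant between groups: log2 1.16 ± 0.11 in WT, 1.42 ± 0.11 in Me-X04- and 2.50 ± 0.09 in Me-X04+.

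mmu_piR_000958 was most like the 45S rRNA precursor (r = 0.906), and its most similar tRNA reached 0.703. Of the 10 highest entries, 2 of the 3 entries of mmu_piR_000691 were also most like 45S (r = 0.946 and 0.934). The third was most like the snRNA Gm23971 (r = 0.935). WT replicates 4 and 5, where mmu_piR_000691 was high, were also the highest libraries of these RNAs. Gm23971 held 950 and 1264 UMIs there and 48 to 182 elsewhere, and 45S held 206339 and 318257 against 42861 to 123207. These correlations were not computed without WT replicates 4 and 5. mmu_piR_002643 reached only 0.789, with Gm14342. mmu_piR_004086 and mmu_piR_017405 were most like the same snoRNA, Gm24949 (r = 0.925 and 0.878), and mmu_piR_017405 was closer to tRNA-Glu-CTC-1-1 (r = 0.937). Over the 28 entries, the most similar RNA outside the tRNA table was a snoRNA for 11, an snRNA for 5, an rRNA for 3 and another RNA for 9, and it was more similar than the best tRNA for 23. The most similar RNA shared the chromosome of the entry for 4 of 28 and for 3 of the 10 highest, of which 2 also shared the strand.

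The tests ask whether piRNA entries differed between phagocytic and non-phagocytic TG microglia and between either of them and WT. As a share of miRNA and piRNA UMIs, the 160 entries stood at 2.09%, 1.54%, 2.00%, 2.81% and 2.82% in WT. The shares were 2.35%, 2.00%, 2.22%, 1.73% and 2.16% in Me-X04- and 2.00%, 1.85%, 2.56%, 1.83% and 1.89% in Me-X04+. The groups overlapped, and no comparison passed (two-sided exact permutation test, adjusted p = 0.722 in all 3 comparisons).

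As shares of UMIs, the leading entry and the remainder differed in opposite directions. mmu_piR_032974 alone took 1.498%, 1.03%, 1.43%, 1.26% and 1.59% of UMIs in WT, 1.76%, 1.33%, 1.31%, 1.16% and 1.52% in Me-X04-, and 1.01%, 0.89%, 0.66%, 0.77% and 0.84% in Me-X04+. The other 159 entries took 0.59%, 0.51%, 0.58%, 1.56% and 1.22% in WT, 0.59%, 0.66%, 0.90%, 0.57% and 0.64% in Me-X04-, and 0.99%, 0.95%, 1.90%, 1.06% and 1.05% in Me-X04+. Every Me-X04+ library lay above every Me-X04- library in this remainder. It was higher by 0.52 points in Me-X04+, in 5 of 5 mice (exact permutation, p = 0.00794, which is the minimum for 5 against 5 libraries, and adjusted p = 0.0238 over 3 comparisons). Part of this came from Me-X04+ replicate 3 (1.90%): without it the mean was 1.01% and the difference 0.34 points (exact permutation, unadjusted p = 0.0159), while leaving out any other library gave 0.49 to 0.58 points. On the scale of CPM with TMM factors the remainder was not higher in Me-X04+: it averaged 6722 ± 725 CPM there, 8289 ± 1274 CPM in Me-X04- and 12728 ± 7089 CPM in WT (SD, n = 5). All 160 entries together averaged 11930 ± 2544, 26805 ± 8844 and 32406 ± 11686 CPM. mmu_piR_032974 made up 42.2% ± 9.70 of piRNA UMIs in Me-X04+, 67.7% ± 5.75 in Me-X04- and 62.2% ± 11.5 in WT. With the mouse as a block, the 5 pairs allow no exact p under 0.0625.

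**Figure D4:**
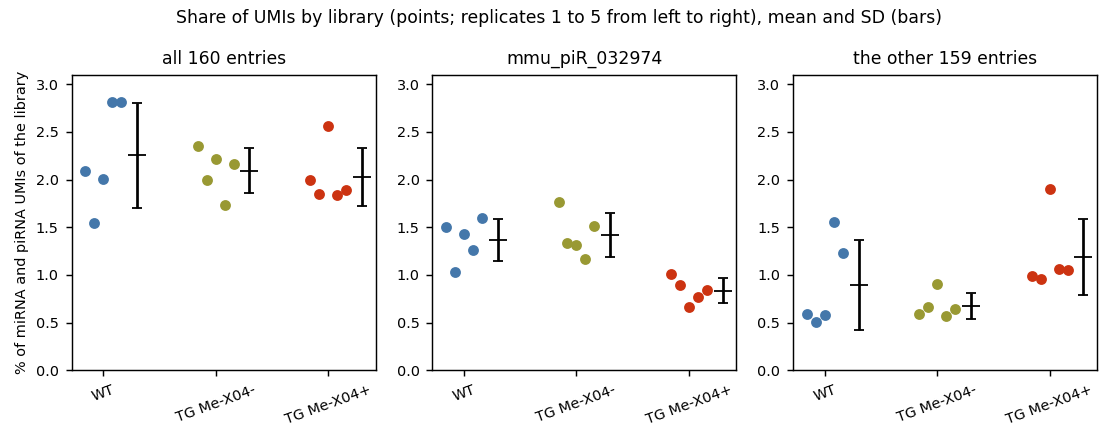
Percent of miRNA and piRNA UMIs on all 160 piRNA entries, on mmu_piR_032974 and on the other 159 entries, by library (points) with the mean and SD of each group (bars). The totals overlap, mmu_piR_032974 is lowest in Me-X04+, and the other entries are higher in all 5 Me-X04+ libraries (0.95% to 1.90%) than in Me-X04- (0.57% to 0.90%).

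Ratios of all piRNA UMIs to another class within a library were tested in 9 comparisons. Against snoRNA UMIs, the log2 ratio was -1.58, -1.60, -1.60, -1.36 and -1.24 in WT, -1.71, -1.59, -1.51, -1.65 and -1.65 in Me-X04-, and -1.46, -1.32, -0.68, -1.14 and -1.33 in Me-X04+. Me-X04+ and Me-X04- did not overlap and differed by 0.44, yet the difference missed the threshold once adjusted (exact permutation, p = 0.00794, adjusted p = 0.0714). Against tRNA UMIs the same comparison gave -0.26 (exact permutation, adjusted p = 0.190) and against miRNA UMIs -0.05 (exact permutation, adjusted p = 0.683). The other 6 comparisons, all with WT, had adjusted p-values of 0.190 or more. Without mmu_piR_032974, the remaining entries were higher in Me-X04+ than in Me-X04- against all 3 classes, by 0.58 (tRNA), 1.28 (snoRNA) and 0.79 (miRNA) on the log2 scale (exact permutation, adjusted p = 0.0476, 0.0357 and 0.0357).

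Entry by entry, 56 of the 160 entries passed the filter on low counts. Calls used edgeR's quasi-likelihood test across all miRNAs and piRNAs, requiring an adjusted p under 0.05 and a log2 fold change of 0.7 or more in size. With the stricter limits that the study applied to miRNAs, an adjusted p under 0.01 and a log2 fold change over 1 in size, 8 piRNA entries were called between Me-X04+ and Me-X04- (5.57% of all tested entries were called) and 22 between Me-X04+ and WT (9.55% of all tested entries), all lower. Between Me-X04+ and Me-X04-, 16 piRNA entries were called, 0 higher and 16 lower. Of all tested miRNAs and piRNAs together, 9.97% were called, 1.39% as higher and 8.57% as lower. The median log2 fold change was -0.47 over the 56 piRNA entries and 0.17 over all 1435 tested entries. With library size alone in place of TMM factors, which moved the median of all entries to 1.28, 13 piRNA entries were called, 8 higher and 5 lower. Over all entries, 500 of the 1435 tested were then called, 484 higher and 16 lower. The direction differed between the 4 scalings tried for 22 of the 56 entries. mmu_piR_032974, mmu_piR_004086, mmu_piR_027673, mmu_piR_000705 and mmu_piR_009321 were called lower under every one of them. For mmu_piR_000705 and mmu_piR_009321 this carries no weight, because both were listed at 0 in every Me-X04+ library and no scaling changes a 0.

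mmu_piR_032974 fell by 1.83 on the log2 scale (SE 0.34, edgeR adjusted p = 0.00108), and by 0.76 with library size alone. mmu_piR_004086 (chromosome 2) was at 554, 310, 243, 334 and 386 CPM in Me-X04- and at 165, 121, 39.9, 77.3 and 78.4 CPM in Me-X04+, with no overlap, and fell by 1.96 (SE 0.32). mmu_piR_027673 was at 230, 137, 74.8, 97.2 and 47.0 CPM against 30.0, 0, 16.7, 0 and 32.8 CPM and fell by 2.84 (SE 0.58). Its values of 0 stand for 0 to 9 UMIs, so the size of this fall depends on the floor. mmu_piR_000580, its neighbour, was at 678, 344, 332, 398 and 447 CPM against 246, 265, 74.6, 159 and 170 CPM and fell by 1.28 (SE 0.32). Both entries of this pair on chromosome 11 thus went in the same direction, without overlap between the groups.

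mmu_piR_000705 and mmu_piR_009321, both on chromosome 7, were listed at 0 in all 5 Me-X04+ libraries. mmu_piR_000705 was at 29.1 to 59.6 CPM in Me-X04- and mmu_piR_009321 at 0 to 71.0 CPM. On the scale with TMM factors and with 9 UMIs assumed in each library at 0, they were at least 2.01-fold and 1.66-fold lower than in Me-X04-. With library size alone a fall is not guaranteed, because mmu_piR_000705 and mmu_piR_009321 held at most 21 and 25 UMIs in a Me-X04- library. mmu_piR_002142 fell by 1.81, mmu_piR_000310 fell by 2.03 and mmu_piR_003399 fell by 1.70. mmu_piR_017405 fell by 1.31, mmu_piR_000159 fell by 1.19, mmu_piR_032865 fell by 2.10 and mmu_piR_025576 fell by 2.12. Some Me-X04+ libraries listed mmu_piR_032865 and mmu_piR_025576 at 0, where up to 9 UMIs can be hidden, so these falls may be overstated. The same holds for mmu_piR_003399, listed at 0 in Me-X04+ replicate 3. With read counts, the calls of mmu_piR_000310 and mmu_piR_003399 were lost (edgeR adjusted p = 0.146 and 0.279). They were also lost with piRNA entries alone (edgeR adjusted p = 0.0684 and 0.131). Read counts also lost the calls of mmu_piR_027673, mmu_piR_032865 and mmu_piR_025576. The calls of mmu_piR_032865 and mmu_piR_025576 were lost with the mouse as a block (log2 fold changes of -2.25 and -3.23, edgeR adjusted p = 0.118 and 0.173). With each library left out in turn, the call of mmu_piR_000159 was lost in 7 of 10 fits (log2 fold changes of -1.50 to -1.05 over the 10) and that of mmu_piR_025576 in 6 of 10 (-3.18 to -1.70 over the 10) and with DESeq2 (adjusted p = 0.0907). The call of mmu_piR_032865 was lost in 1 of 10, without Me-X04- replicate 1 (-1.80). The 3 remaining called entries fell by 1.27 to 1.38.

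No piRNA entry was called higher. mmu_piR_002643 was at 596, 1110.1, 1459.7, 815 and 1431 CPM in Me-X04- and at 1575, 1724, 1863, 1533 and 1616 CPM in Me-X04+, so the groups did not overlap, but the change of 0.62 (SE 0.26) did not pass (edgeR adjusted p = 0.184). With library size alone it was 1.69 and was called. mmu_piR_000578 (0.45), mmu_piR_000958 (-0.01), mmu_piR_004374 on chromosome 9 (0.08) and mmu_piR_020554 (0.33) did the same, not called with TMM factors and called as higher with library size alone. None of the 14 tested entries of mmu_piR_000691 was called, with log2 fold changes between -0.97 and -0.11.

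By the class with the steadiest ratio over all libraries, all 5 entries nearest to snoRNA and all 3 nearest to miRNA were called lower, with medians of -1.81 and -1.31, while 0 of the 16 nearest to rRNA were called and their median was -0.10. Many of these 16 are positions of the same name, mmu_piR_000691, so they are not separate observations. The snoRNA and miRNA sets exchanged members without WT replicates 4 and 5. Of the 3 nearest to snRNA 1 was called, and the entry nearest to nuclear tRNA was at -0.59. The nearest class was assigned from the same libraries, so this is a description of one pattern in 2 ways. The summed microglial and myeloid markers and the summed neuronal markers were also lower in Me-X04+ on the scale with TMM factors. Their part in these results was not tested.

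**Figure D5:**
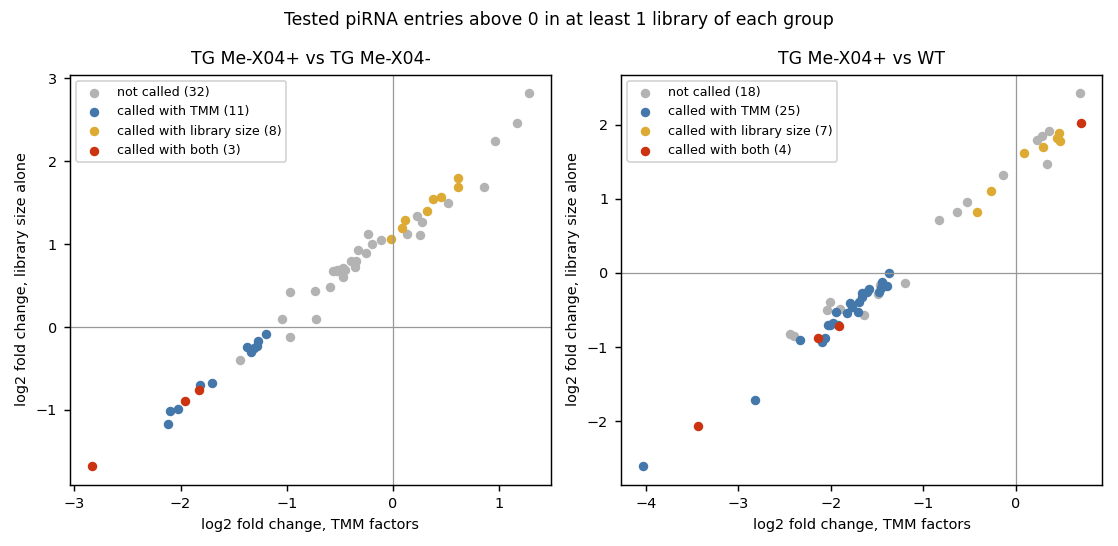
Log2 fold change of piRNA entries in Me-X04+ against Me-X04- (left) and against WT (right) with TMM factors (horizontal) and with library size alone (vertical), coloured by which scaling called them. The 54 of 56 tested entries above 0 in each group are shown. Library size alone gave higher values throughout, and the calls with TMM factors are nearly all at the lower left.

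Me-X04- and WT were not told apart by the piRNA entries. edgeR called 0 of 56 entries (0.139% of all tested entries were called), with 16 at an unadjusted p under 0.05. DESeq2 called 0, with 13 at an unadjusted p under 0.05. Without WT replicates 4 and 5, 2 entries were at an unadjusted p under 0.05. mmu_piR_032974 differed by -0.09 (SE 0.33). The median of the 14 mmu_piR_000691 entries was -1.22, where WT replicates 4 and 5 were the 2 high libraries.

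Between Me-X04+ and WT, 31 piRNA entries were called, 1 higher and 30 lower, where 15.4% of all tested entries were called, 3.69% as higher and 11.7% as lower. Without WT replicates 4 and 5, 19 were called, 1 higher and 18 lower, where 178 of all 1621 tested entries were called, 46 higher and 132 lower. With library size alone 13 were called, 8 higher and 5 lower, where 672 of all 1435 tested entries were called, 644 higher and 28 lower. mmu_piR_032974 fell by 1.92 (SE 0.34), and by 1.81 without WT replicates 4 and 5. Its call was lost with library size alone (-0.70).

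The 2 WT libraries decided the calls of mmu_piR_000691: 11 of its 14 tested entries were called lower (median -1.66), and 0 of 14 without WT replicates 4 and 5. mmu_piR_000619 fell by 4.03 with them and was at 1.35, not called, without them. mmu_piR_039147 on chromosome 6 fell by 2.33 with them and was at -1.01, not called, without them. Its entry on chromosome 9, which overlaps mmu_piR_000159, fell by 2.03 and by 1.13.

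Other entries differed from WT with or without these libraries. mmu_piR_004086 was at 419, 424, 376, 215 and 340 CPM in WT and fell by 1.91 (and fell by 2.12 without WT replicates 4 and 5). mmu_piR_027673 was at 87.8, 116, 193, 164 and 307 CPM in WT and fell by 3.43 (and fell by 3.03 without them). mmu_piR_000159 fell by 2.14, mmu_piR_003399 fell by 2.06, mmu_piR_032865 fell by 2.10 and mmu_piR_025576 fell by 2.82, and these calls too held without WT replicates 4 and 5. With library size alone, mmu_piR_004086, mmu_piR_027673 and mmu_piR_000159 remained called and mmu_piR_003399, mmu_piR_032865 and mmu_piR_025576 did not. Read counts gave the same split. On the scale with TMM factors and with 9 UMIs assumed in each library at 0, mmu_piR_000705 and mmu_piR_009321 were at least 2.60-fold and 3.00-fold lower than in WT. For these entries the Me-X04+ libraries were the low ones in both comparisons, which share those libraries.

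The 1 entry called higher was mmu_piR_020554 (chromosome 2), at 79.3, 51.8, 57.1, 47.7 and 74.4 CPM in WT and 108, 94.6, 77.1, 122 and 108 CPM in Me-X04+. The lowest Me-X04+ library lay just under the highest WT library. It rose by 0.70 (SE 0.21, edgeR adjusted p = 0.0242), at the edge of the fold threshold. The call was lost in 6 of the 10 fits that left out 1 library (0.61 to 0.79 over the 10), with these groups fitted alone (0.67), with TMM factors from miRNA entries (0.67), without a filter (0.70) and without WT replicates 4 and 5 (0.69).

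Reads per UMI, a measure of how often each molecule was read, had a median of 9.87 over the 31 piRNA entries with at least 500 UMIs, against 10.5 for miRNAs, 7.90 for nuclear tRNAs and 7.28 for snoRNAs. The range over piRNA entries was 1.71 to 11.8. mmu_piR_004086 was among the lowest at 2.15, so its reads give it less weight than its UMIs do.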

How the data were processed

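Small RNA libraries were made with a QIAseq miRNA kit, which tags molecules with UMIs, and per the study's methods reads were trimmed, mapped and counted with the Qiagen Data Analysis Center (version and piRNA catalogue not given in the sources used here). The authors deposited UMI counts and read counts per entry, not normalized, and no per-sample column was left out (0 unused). edgeR 3.24.3 and the build GRCm38 are listed in the submitters' processing notes. A UMI floor of 10 holds in the deposited counts of piRNA entries, so 0 stands for 0 to 9.

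All 15 libraries of the miRNA and piRNA table were fitted together with edgeR 4.0.16 in R 4.3.3 (filterByExpr, TMM, quasi-likelihood F-test, Benjamini-Hochberg over 1435 tested entries). Calls required an adjusted p under 0.05 together with a log2 fold change of 0.7 or more in size, which the study's methods give for transcripts. Its miRNA comparisons used stricter limits, which were added as an alternative. Standard errors were derived from the F statistic. Shares and log2 ratios of UMIs were tested by two-sided exact permutation, adjusted over 3 shares and 9 ratios, in Python 3.11.15 (numpy 2.4.6, pandas 2.3.3, matplotlib 3.10.9). The tests were checked on simulated data. A p-value sets a difference between groups against the spread between these libraries. The permutation tests did not use the pairing of TG libraries by mouse. Intervals from counting were not computed, and UMI totals of 240027 to 1192832 per library limit the precision of low entries.

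Alternatives were other scalings, filters, read counts, piRNA entries alone, 2 groups alone, DESeq2 1.42.0, the mouse as a block and leaving out each library. Fits without WT replicates 4 and 5, the stricter limits, the share without mmu_piR_032974 with libraries left out, the steadiness of ratios, and the spacing and linking of entries were chosen after seeing the data. The members and lists were chosen with earlier results of these data known. Named entries were the 20 highest, up to 10 called in each direction per comparison, and for the 10 highest the most similar tRNA and other RNA.

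The labels give paired TG libraries the same mouse. After centring on the group means, such pairs had correlations of -0.17 to 0.25, and other TG pairs of -0.26 to 0.27. No library was a duplicate of another, as chi-square divided by its degrees of freedom was 2.87 to 44.0 over the 30 pairs within groups. The reference sequence of a further RNA is not reported here.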

Additional observations from a re-analysis of the deposited data

Results flagged for a closer look

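Of 72 groups of 5 libraries examined, 6 (8.33%) held a library whose gap to the nearest other exceeded 0.71 of the group's range, where chance gives about 1 in 20. Me-X04+ replicate 3 was 1 such library in 3 of them: its piRNA share was 2.56% against 1.83% to 2.00% in the other 4 libraries, its log2 ratio of piRNA to miRNA UMIs was -5.25 against -5.74 to -5.62, and its level of mmu_piR_017405 was 25.7 CPM against 106 to 137 CPM. Me-X04+ replicate 4 had mmu_piR_000958 at 912 CPM against 1197 to 1304 CPM. WT replicate 4 had mmu_piR_000578 at 218 CPM against 131 to 149 CPM. Me-X04- replicate 1 had mmu_piR_000619 at 56.8 CPM, with the other 4 libraries at 0.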

How the results depend on the processing

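Removing mmu_piR_032974 turned the most results. The share difference became 0.52 points for Me-X04+ vs Me-X04- and 0.30 for Me-X04+ vs WT. The log2 ratios became 0.58 (tRNA), 1.28 (snoRNA) and 0.79 (miRNA) for Me-X04+ vs Me-X04-, 0.53 (tRNA) and 0.52 (miRNA) for Me-X04+ vs WT, and -0.0580 (tRNA) for Me-X04- vs WT. Read counts in place of UMIs turned the share to 0.0804 points and the miRNA ratio to 0.0512 for Me-X04+ vs Me-X04-. With 10 or more UMIs in every library, the miRNA ratio for Me-X04- vs WT was 0.00498. None of these but the 4 that passed after removing mmu_piR_032974 (share and ratios of Me-X04+ vs Me-X04-) passed its test.

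Without WT replicates 4 and 5, the shares became 0.21 (Me-X04- vs WT) and 0.15 points (Me-X04+ vs WT), the miRNA ratios 0.16 and 0.11 and the tRNA ratio of Me-X04+ vs WT 0.10, none of which passed. In the same fit the mmu_piR_000691 entry starting at 126462165 was at 0.00616 and mmu_piR_000619 at 1.35.

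For Me-X04+ vs WT the count of called piRNA entries was 13 with library size alone, 14 with the UMI total of all classes, 20 with 10 or more UMIs in every library, 20 with read counts, 16 with piRNA entries alone and 19 without WT replicates 4 and 5. Over all tested entries these settings called 672 of 1435, 673 of 1416, 254 of 672, 178 of 1602, 16 of 56 and 178 of 1621. For Me-X04+ vs Me-X04- the piRNA count was 9 with read counts (122 of 1602 over all entries) and 8 with the stricter limits (80 of 1435). For Me-X04- vs WT it was 2 without a filter (4 of 1994). For Me-X04+ vs Me-X04-, the UMI total of all classes gave 8 higher and 6 lower (417 and 25 of 1416 over all entries), and piRNA entries alone gave 2 higher and 9 lower. The cause was not tested.

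With each library left out in turn, called entries numbered 12 to 18 (Me-X04+ vs Me-X04-), 24 to 32 (Me-X04+ vs WT) and 0 to 0 (Me-X04- vs WT). The miRNA ratio for Me-X04- vs WT ran from -0.21 to 0.0107, above 0 without WT replicate 4 or 5.

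With the replicate block (the mouse) in Me-X04+ vs Me-X04-, 13 piRNA entries were called, 0 higher and 13 lower, of 48 tested. Over all 1298 tested entries, 152 were called, 21 higher and 131 lower. The paired share difference was -0.0649 points (exact sign-flip p = 0.625), and the paired ratios were -0.26 (tRNA, p = 0.0625), 0.44 (snoRNA, p = 0.0625) and -0.05 (miRNA, p = 0.5625). An entry listed at 0 in a library can hold up to 9 UMIs there.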
